A study of Mus musculus with 12 samples.

Results

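Secretory cargo leaves the endoplasmic reticulum (ER) in vesicles coated with COPII and is fetched back, together with escaped ER proteins and the machinery itself, in vesicles coated with COPI. The transcripts of 52 mouse genes that carry out this traffic were followed in aortae of mice fasted for 24 h and in aortae of control mice. The genes were taken by symbol, as a list of coat subunits, their GTPases and scaffolds, cargo receptors, SNAREs, Golgi tethers and the CREB3 family of transcription factors, and all 52 were found among the 12287 genes of the table. The libraries came from whole aortae of C57BL/6 mice aged 7 weeks, 6 from mice fasted for 24 h and 6 from controls. The dissected vessel keeps endothelium, smooth muscle and adventitia, and the sex of the mice was not given in the sources used here. Labels number the libraries but do not say that each came from a separate mouse, so the p-values reflect spread between libraries that may be technical. In whole tissue, fewer cells of a type and less RNA per cell cannot be told apart. Levels are FPKM, fragments scaled to transcript length and library size, as the authors deposited them, summed over the listed transcripts of each gene. The depth of the libraries is unknown.

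In COPII transport, the GTPase SAR1, loaded by its exchange factor PREB, recruits the inner coat of SEC23 and SEC24, which binds cargo, and then the outer cage of SEC13 and SEC31. In the return route, ARF1, loaded by GBF1, recruits the complete COPI coatomer, and KDEL receptors hand it the soluble ER proteins that have escaped to the Golgi. Smooth muscle cells and fibroblasts of the aortic wall secrete collagens, elastin and proteoglycans, cargo that depends on these routes.

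Most of the transport genes were lower after the fast, each by a modest amount. Of the 52 genes, 31 fell and 1, Tmed5, rose, while 20 were not called. The falls ran from 13.0% to 36.8% of the control mean. Summed over the 52 genes, the level was 1912 to 2062 FPKM in fasted aortae, against 2413 to 2571 FPKM in controls, which is 19.5% lower on the means (1985 ± 61.1 FPKM in fasted aortae and 2465 ± 54.1 FPKM in controls; SD, n = 6 each). No fasted library reached the lowest control.

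A gene was called when its adjusted p was under 0.05 in limma, run on log2(FPKM + 1) over the 12063 genes that reached 0.5 FPKM in 6 libraries or more, with Benjamini-Hochberg adjustment over all of them. All 52 passed this filter in every library, the lowest value of any being 3.03 FPKM. Across all tested genes 3821 were called, which is 31.7%, with 17.9% lower and 13.8% higher in fasted aortae. The share of the transport genes that fell was 59.6%. Every fasted library lay below every control in 28 of the 52, against 10.2% of all tested genes, and above every control in 1, against 6.78%. Of these 28, 27 were called and Sar1a was not. The median log2 difference was -0.29 over the 52 genes and -0.024 over all tested genes. No member changed 2-fold on the log2(FPKM + 1) scale, on which differences are given here with their standard errors, and 8 fell by 0.5 or more. Of the 20 genes not called, 14 had a negative and 6 a positive difference, so that 45 of the 52 pointed downward. By class, 12 of 17 coat subunits fell, 10 of 18 cargo receptors fell and 1 rose, 8 of 14 GTPases, exchange factors, SNAREs and Golgi scaffolds fell, and 1 of 3 transcription factors fell.

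**Figure D1:**
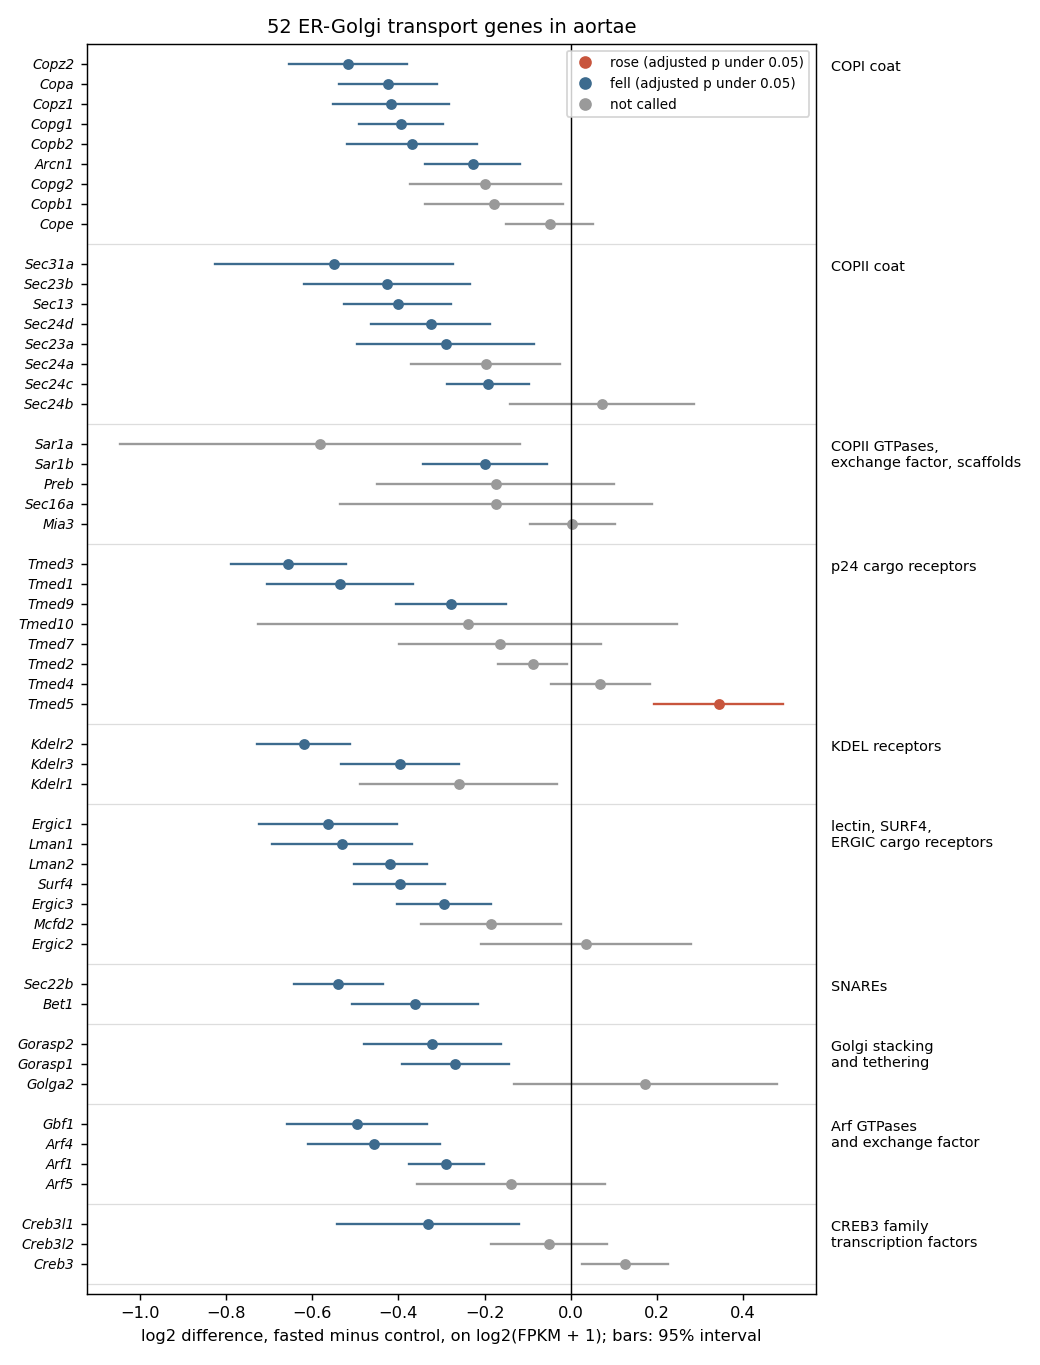
Each point is the log2 difference, fasted minus control, of 1 of the 52 genes on the log2(FPKM + 1) scale, grouped by role, with its 95% interval from limma as a bar. Blue genes fell, the red gene rose and grey genes were not called; the differences run from -0.66 (Tmed3) to 0.34 (Tmed5).

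Promoter sequences of the members were read as a description only. The RefSeq promoter windows (GRCm38.p6), which span 250 bases before to 50 after each start, matched 46 of the 52 genes. They were searched on both strands for motifs of the ER and Golgi stress responses. The Golgi stress element ACGTGGC, known from genes that cells turn on under Golgi stress, was in windows of 15 of the 46 genes (32.6%), against 4.50% of all tested genes with a window. The core of the unfolded protein response element, TGACGTGG, a site that XBP1 can bind, was in 7 (15.2%), against 1.07% of tested genes. The motifs overlap where TGACGTGG is followed by a C. Such a shared site puts Arf1, Kdelr3, Sec23a and Sec24d in both counts, so the counts are not independent. Upstream stretches with the motif follow for genes that fell (Kdelr3, Tmed3 and Sec24c) and for genes that were not called (Sar1a, Mcfd2 and Arf5), 5′ to 3′ on the strand of the gene, with the motif in capitals. GCCACGT is the Golgi stress element on the other strand and CCACGTCA the unfolded protein response core on the other strand.
Kdelr3 (chr15:79516358-79516405, plus strand): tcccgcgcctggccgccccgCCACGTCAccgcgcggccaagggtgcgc
Tmed3 (chr9:89705218-89705264, minus strand): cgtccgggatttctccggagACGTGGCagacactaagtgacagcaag
Sec24c (chr14:20674226-20674272, plus strand): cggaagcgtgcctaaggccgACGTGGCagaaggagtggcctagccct
Sar1a (chr10:61680107-61680153, plus strand): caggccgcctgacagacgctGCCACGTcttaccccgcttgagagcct
Mcfd2 (chr17:87266112-87266158, minus strand): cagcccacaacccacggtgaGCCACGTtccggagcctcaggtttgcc
Arf5 (chr6:28423513-28423559, plus strand): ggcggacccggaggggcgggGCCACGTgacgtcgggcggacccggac
In Kdelr3 the letter before the capitals completes the Golgi stress element as well. Of the 27 matched members that fell, 11 held the Golgi stress element and 6 the unfolded protein response core; of the 19 matched members that did not fall, 4 and 1 held them. Among tested genes outside the list, 19.5% of the 410 with the Golgi stress element and 14.9% of the 94 with the unfolded protein response core fell, against 17.8% of all genes outside the list with a window. The cAMP element TGACGTCA was in 1 member, Cope, which was not called. The ER stress element (CCAAT, 9 bases of any kind, CCACG) and ER stress element II (ATTGG, 1 base of any kind, CCACG) were in no member window. Outside the list the ER stress element was in 15 tested genes, of which 9 fell (60.0%). ER stress element II was in 8 such genes, of which 3 fell (37.5%). The cAMP element was in 327, of which 69 fell (21.1%). A match is a description of these letters in these windows and shows no binding.

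The COPI coat was lower in 6 of its 9 genes, and all 9 had negative differences. Where 3 levels are given here, they are the lowest, the median and the highest of the 6 libraries of a group. Copg1, the gamma subunit (ENSMUSG00000030058, chromosome 6, 87887814 to 87913595, plus strand; coordinates here are those of GENCODE M21 on GRCm38), had 30.7, 32.0 and 34.5 FPKM in fasted aortae, against 40.0, 42.6 and 46.0 FPKM in controls. It fell by 24.5% (log2 difference -0.39 ± 0.045, adjusted p = 4.28e-05, limma with Benjamini-Hochberg adjustment, as for every adjusted p of a gene here). Copz2, one of the paralogous zeta subunits, had 49.0, 51.9 and 63.9 FPKM in fasted aortae, against 71.9, 77.0 and 82.0 FPKM in controls (log2 difference -0.52 ± 0.064, adjusted p = 7.98e-05). Copa, the alpha subunit of the outer layer, had 46.3, 55.0 and 58.3 FPKM in fasted aortae, against 71.0, 72.1 and 73.8 FPKM in controls (log2 difference -0.42 ± 0.052, adjusted p = 8.23e-05). Each of these 3 subunits had groups that did not overlap. Copz1, Copb2 (beta prime) and Arcn1 (delta) fell as well, by 25.7%, 22.7% and 14.7% (adjusted p = 2.92e-04, 0.00157 and 0.00453), each without overlap. The 3 not called were Copg2 (-0.20, adjusted p = 0.0792), Copb1, the beta subunit (-0.18, adjusted p = 0.0839), and Cope, the epsilon subunit (-0.049, adjusted p = 0.460; the most abundant of its transcripts, its main transcript, alone gave -0.15, adjusted p = 0.0379). In limma over all transcripts the main transcript of Cope was not called (adjusted p = 0.0593). Summed, the 9 coatomer genes had 354 to 392 FPKM in fasted aortae, against 451 to 484 FPKM in controls.

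The COPII coat was lower in 6 of its 8 genes. Sec13, part of the outer cage (ENSMUSG00000030298, chromosome 6, 113728062 to 113740743, minus strand), had 49.7, 54.9 and 59.3 FPKM in fasted aortae, against 67.9, 72.4 and 78.4 FPKM in controls (log2 difference -0.40 ± 0.058, adjusted p = 2.40e-04). Sec24d, which encodes one of the cargo-binding inner subunits, had 50.1, 58.5 and 65.3 FPKM in fasted aortae, against 67.7, 73.6 and 80.0 FPKM in controls (log2 difference -0.33 ± 0.063, adjusted p = 0.00192). Sec23b, an inner subunit that speeds the GTPase of SAR1, had 8.25, 9.96 and 12.8 FPKM in fasted aortae, against 12.9, 14.4 and 15.04 FPKM in controls (log2 difference -0.43 ± 0.089, adjusted p = 0.00307). Fasted and control libraries did not overlap in these 3 genes, although in Sec23b the highest fasted library came within 0.1 FPKM of the lowest control. Sec24c, a paralogue of Sec24d, fell by 13.0% with overlapping groups (adjusted p = 0.00525), and its main transcript alone gave -0.14 (adjusted p = 0.461). Sec31a, the rod of the outer cage, had 44.5 ± 7.46 FPKM in fasted aortae and 65.6 ± 11.3 FPKM in controls (log2 difference -0.55 ± 0.13, adjusted p = 0.00569), with the largest spread of the coat genes. Sec23a was at 32.3 ± 4.67 FPKM in fasted aortae and 39.4 ± 2.69 FPKM in controls (log2 difference -0.29 ± 0.095, adjusted p = 0.0327), and its adjusted p was 0.0582 to 0.0673 without control replicate 4, 5 or 6. Sec24a (-0.20, adjusted p = 0.0772) and Sec24b (0.072, adjusted p = 0.622) were not called. Sec24a passed without fasted replicate 1 (-0.25, adjusted p = 0.0186).

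Of the 5 factors that start or place a COPII vesicle, 1 fell. Sar1b, one of the paired SAR1 GTPases, had 26.8, 31.2 and 33.3 FPKM in fasted aortae, against 32.2, 34.8 and 38.9 FPKM in controls. The groups overlapped (log2 difference -0.20 ± 0.067, adjusted p = 0.0369), and the call was lost without fasted replicate 1, 5 or 6 or control replicate 3, 4 or 5 (adjusted p 0.0597 to 0.0780). Median-of-ratios scaling also ended the call (-0.17, adjusted p = 0.0686). Sar1a (ENSMUSG00000020088, chromosome 10, 61680299 to 61693297, plus strand) had 23.6, 63.98 and 68.1 FPKM in fasted aortae, against 75.5, 84.5 and 87.2 FPKM in controls. Every fasted library lay below every control, yet the gene did not pass (log2 difference -0.58 ± 0.21, adjusted p = 0.0545), and fasted replicate 6 held 23.6 FPKM, against 62.7 to 68.1 FPKM in the other fasted libraries. Without that library the difference was -0.35 with an adjusted p of 3.77e-04. In fasted replicate 6 the most abundant transcript, Sar1a-201, stood at 19.4 FPKM. Preb, the exchange factor, had 4.73, 5.20 and 6.25 FPKM in fasted aortae, against 4.88, 5.77 and 9.63 FPKM in controls and was not called (log2 difference -0.17 ± 0.13, adjusted p = 0.325). Sec16a, the scaffold of the exit site (-0.17, adjusted p = 0.468), and Mia3, the receptor that brings collagens to COPII (0.0036, adjusted p = 0.964), were not called. For Mia3 the means were 59.7 ± 3.16 FPKM in fasted aortae and 59.5 ± 2.51 FPKM in controls, and its 95% interval ran from -0.094 to 0.10.

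The p24 receptors, transmembrane proteins that collect cargo such as proteins with a lipid anchor, went in both directions. Tmed3 (ENSMUSG00000032353, chromosome 9, 89699206 to 89705068, minus strand), whose promoter stretch is printed above, had 50.7, 55.5 and 63.5 FPKM in fasted aortae, against 82.9, 88.0 and 96.1 FPKM in controls. This was the largest fall of the 52 genes, 36.8% (log2 difference -0.66 ± 0.062, adjusted p = 9.86e-06). Tmed1 had 3.03, 3.31 and 4.05 FPKM in fasted aortae, against 4.89, 5.41 and 6.07 FPKM in controls (log2 difference -0.54 ± 0.078, adjusted p = 2.65e-04). In Tmed3 and Tmed1 every fasted library lay below every control. Tmed5 (ENSMUSG00000063406, chromosome 5, 108106366 to 108132620, minus strand) had 11.2, 11.7 and 14.4 FPKM in fasted aortae, against 8.20, 9.24 and 10.2 FPKM in controls and rose by 29.9% without overlap (log2 difference 0.34 ± 0.069, adjusted p = 0.00236). Its increase was carried by the coding transcript Tmed5-201, at 9.13 to 12.9 FPKM in fasted aortae, against 7.07 to 8.57 FPKM in controls (log2 difference 0.36, adjusted p = 0.00713 in limma over all transcripts). Tmed5 shares 2639 bases with Mtf2 on the opposite strand, a gene listed at a mean of 2.27 FPKM. Tmed9 fell by 17.7% (adjusted p = 0.00342). Tmed2, Tmed7, Tmed4 and Tmed10 were not called, with differences of -0.088, -0.16, 0.069 and -0.24. Tmed10, one of the most abundant members, had 94.1 ± 26.0 FPKM in fasted aortae and 108 ± 21.5 FPKM in controls, with fasted replicate 2 at 41.9 FPKM. It has a named pseudogene, Tmed10-ps, with which reads could be shared.

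The KDEL receptors return soluble ER proteins that end in KDEL or a like sequence. Kdelr2 (ENSMUSG00000079111, chromosome 5, 143403838 to 143421901, plus strand) had 45.5, 49.5 and 50.9 FPKM in fasted aortae, against 67.7, 76.0 and 80.6 FPKM in controls. It fell by 35.4% and had the smallest p of all 52 genes (log2 difference -0.62 ± 0.050, adjusted p = 2.97e-06). Kdelr3, whose promoter holds both motifs, had 36.9, 39.1 and 47.9 FPKM in fasted aortae, against 49.1, 53.6 and 57.1 FPKM in controls (log2 difference -0.40 ± 0.064, adjusted p = 5.13e-04). Neither gene overlapped between the groups. Kdelr1 had 40.1, 47.9 and 60.5 FPKM in fasted aortae, against 47.2, 60.4 and 64.1 FPKM in controls and was not called (log2 difference -0.26 ± 0.11, adjusted p = 0.0771). It passed without fasted replicate 1 or 6 or control replicate 4 (adjusted p 0.0290 to 0.0481). Kdelr1 overlaps Grin2d on the opposite strand, listed at a mean of 0.915 FPKM.

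Among the other cargo receptors, 5 of 7 fell. Lman2, a lectin that follows glycoproteins through the early secretory pathway, had 26.2, 27.1 and 28.7 FPKM in fasted aortae, against 34.5, 37.1 and 38.1 FPKM in controls (log2 difference -0.42 ± 0.039, adjusted p = 9.86e-06). Surf4, a receptor for soluble secreted proteins, had 42.6, 46.0 and 48.1 FPKM in fasted aortae, against 57.4, 58.3 and 65.5 FPKM in controls (log2 difference -0.40 ± 0.049, adjusted p = 7.93e-05). Ergic1, a protein that cycles through the ER-Golgi intermediate compartment, had 30.5, 34.4 and 39.2 FPKM in fasted aortae, against 43.3, 52.4 and 59.4 FPKM in controls (log2 difference -0.56 ± 0.074, adjusted p = 1.33e-04). These 3 genes did not overlap between groups. Lman1, the lectin that carries coagulation factors together with MCFD2, fell by 31.3% (adjusted p = 2.15e-04), and Ergic3 by 18.7% (adjusted p = 7.96e-04). Mcfd2 itself (-0.19, adjusted p = 0.0766) and Ergic2 (0.035, adjusted p = 0.843) were not called. Mcfd2 passed without fasted replicate 2 (-0.23, adjusted p = 0.0263) or control replicate 1 (-0.22, adjusted p = 0.0380).

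**Figure D2:**
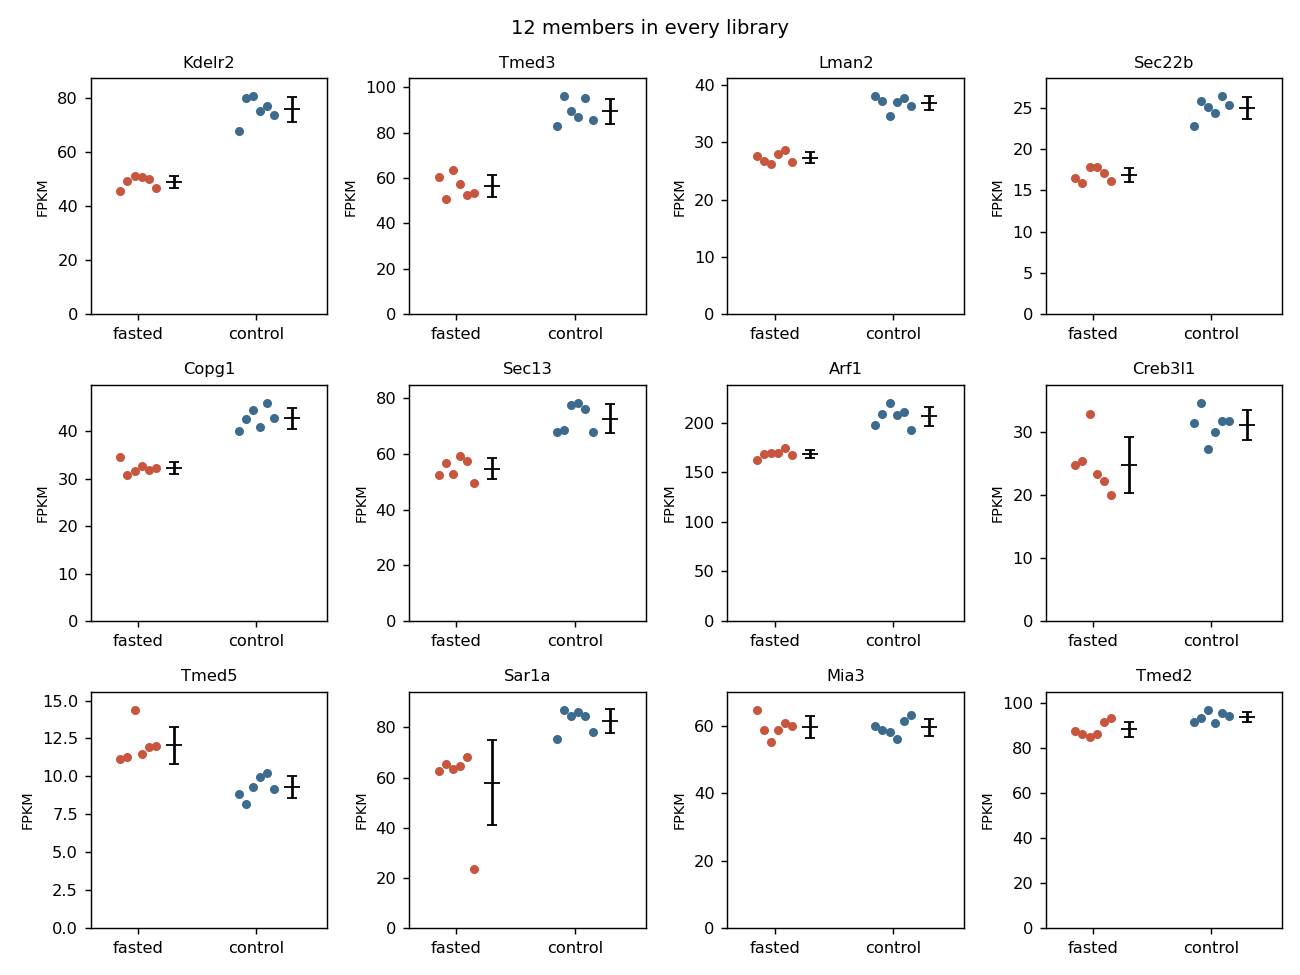
FPKM of 12 of the 52 genes in every library, fasted on the left and control on the right, each from 0; points are libraries and the bar beside them is the mean with its SD (n = 6). Kdelr2, Tmed3, Lman2, Sec22b, Copg1, Sec13 and Arf1 stand apart downward, Tmed5 upward, fasted replicate 6 of Sar1a lies at 23.6 FPKM, and Creb3l1, Mia3 and Tmed2 overlap.

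Both SNAREs fell, the proteins that drive fusion of these vesicles with their target membrane. Sec22b had 15.9, 16.8 and 17.8 FPKM in fasted aortae, against 22.8, 25.2 and 26.5 FPKM in controls (log2 difference -0.54 ± 0.048, adjusted p = 6.34e-06). Bet1 had 10.9, 11.9 and 12.6 FPKM in fasted aortae, against 13.3, 16.2 and 17.2 FPKM in controls (log2 difference -0.36 ± 0.067, adjusted p = 0.00144). Neither overlapped. Of the Golgi stacking and tethering genes, Gorasp1 had 4.51, 4.85 and 5.22 FPKM in fasted aortae, against 5.29, 6.23 and 6.44 FPKM in controls (log2 difference -0.27 ± 0.057, adjusted p = 0.00343). Gorasp1 lies wholly within the span of Cx3cr1 on the same strand, listed at a mean of 1.19 FPKM. It also shares 1331 bases with Wdr48 on the opposite strand, listed at a mean of 16.9 FPKM. Gorasp2 had 39.9, 45.2 and 55.5 FPKM in fasted aortae, against 54.2, 56.9 and 60.0 FPKM in controls, with overlap (log2 difference -0.32 ± 0.074, adjusted p = 0.00539), and its main transcript alone gave -0.38 (adjusted p = 0.284). Golga2, a tether of the cis-Golgi, had 6.91, 9.98 and 13.0 FPKM in fasted aortae, against 6.45, 8.24 and 9.85 FPKM in controls and was not called (log2 difference 0.17 ± 0.14, adjusted p = 0.382).

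The Arf branch fell in 3 of 4 genes. Arf1, the GTPase that recruits coatomer and the most abundant of the 52 genes per length (ENSMUSG00000048076, chromosome 11, 59211412 to 59228270, minus strand), had 162, 169 and 174 FPKM in fasted aortae, against 193, 208 and 220.1 FPKM in controls (log2 difference -0.29 ± 0.040, adjusted p = 1.95e-04). Gbf1, its exchange factor, had 7.28, 8.24 and 9.44 FPKM in fasted aortae, against 10.6, 12.1 and 13.1 FPKM in controls (log2 difference -0.50 ± 0.075, adjusted p = 3.47e-04), and its main transcript alone gave -0.48 (adjusted p = 0.346). That transcript is annotated as a processed transcript without a coding frame, and averaged 5.17 ± 1.68 FPKM in fasted aortae and 8.25 ± 3.48 FPKM in controls. The coding transcript Gbf1-201 averaged 3.15 ± 1.12 FPKM in fasted aortae and 3.85 ± 2.82 FPKM in controls and was not called (log2 difference -0.10, adjusted p = 0.884 in limma over all transcripts). The fall of Gbf1 is thus one of the summed gene, and neither transcript was called alone. Arf4 had 60.6, 66.9 and 76.9 FPKM in fasted aortae, against 80.1, 92.4 and 102 FPKM in controls (log2 difference -0.46 ± 0.071, adjusted p = 4.09e-04). No overlap was seen in these 3 genes. Arf5 was not called (-0.14, adjusted p = 0.323) but passed without fasted replicate 3 (-0.23, adjusted p = 0.0257).

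The CREB3 proteins are transcription factors held in the ER membrane and released by cleavage in the Golgi, and CREB3L1 and CREB3L2 are known to switch on secretory pathway genes. Creb3l1 had 19.98, 24.0 and 32.7 FPKM in fasted aortae, against 27.3, 31.5 and 34.6 FPKM in controls. It fell with overlapping groups (log2 difference -0.33 ± 0.097, adjusted p = 0.0201). Creb3l2 had 36.4, 43.2 and 44.9 FPKM in fasted aortae, against 41.1, 42.3 and 48.8 FPKM in controls (log2 difference -0.051 ± 0.062, adjusted p = 0.575), and Creb3 22.8, 24.2 and 25.0 FPKM in fasted aortae, against 20.4, 22.0 and 23.5 FPKM in controls (log2 difference 0.13 ± 0.046, adjusted p = 0.0524). Neither was called. Creb3 was called as higher with median-of-ratios scaling (0.15, adjusted p = 0.0197), and without fasted replicate 3 (0.14, adjusted p = 0.0290) or control replicate 4 (0.14, adjusted p = 0.0334).

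For paralogues that take the same place in a coat or share a task, 4 of 17 shares of the family level differed between the groups. The share of each paralogue in the summed FPKM of its family was compared for 17 shares in 8 families with a two-sided exact permutation test over the 12 libraries, whose smallest p is 0.00216, and adjusted over the 17. Within the SEC24 subunits, Sec24b held 14.1 ± 1.15% in fasted aortae and 11.3 ± 1.05% in controls (difference 2.83 points, adjusted p = 0.0368, exact permutation test), with no overlap. Sec24d held 59.2 ± 1.87% in fasted aortae and 62.8 ± 1.38% in controls (-3.59 points, adjusted p = 0.0368, exact permutation test). Shares within a family add up to the whole, so the Sec24b and Sec24d results are not independent. The level of Sec24b itself was not called (log2 difference 0.072, adjusted p = 0.622, limma). Kdelr2 held 35.4 ± 3.00% in fasted aortae and 40.3 ± 1.86% in controls of the KDEL receptor level (-4.91 points, adjusted p = 0.0368, exact permutation test). Creb3l1 held 27.2 ± 2.78% in fasted aortae and 32.3 ± 2.02% in controls of the CREB3 level (-5.12 points, adjusted p = 0.0368, exact permutation test). With the difference in medians in place of means none of the 17 passed, and without control replicate 2, 4, 5 or 6 the number was 1, 1, 1 and 2. The SEC23, COPI gamma, COPI zeta, SAR1 and ARF shares did not pass (adjusted p 0.0736 to 0.449, exact permutation test); the difference in the Copz1 share was 1.55 points and that in the Copg1 share -1.93 points.

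Single transcripts showed the same direction in part. Of 106 listed transcripts of the 52 genes 102 were tested, and 32 fell, against 8.98% of all tested transcripts. A further 3 rose, against 7.19%: Tmed5-201, Sec31a-210 and Golga2-210. Sec31a-210 averaged 10.6 ± 9.03 FPKM in fasted aortae and 0.19 ± 0.47 FPKM in controls. It reached the 0.5 FPKM mean of the listed transcripts only in the fasted group, so its call is partly fixed by that floor. The shares of transcripts in their gene were tested for 77 transcripts of 25 genes with limma, and 0 passed, against 0.532% of all shares; 8 had an unadjusted p under 0.05, and 1 passed without fasted replicate 4. The members Sec31a and Golga2 stood out by the spread between fasted libraries and were chosen after their values were seen. The main transcript Sec31a-201 (chromosome 5, 100361649 to 100416234, minus strand, 28 exons) was at 14.7 to 31.5 FPKM in fasted aortae, against 33.0 to 42.1 FPKM in controls (log2 difference -0.80, adjusted p = 0.00240, limma). Sec31a-210, which has 26 exons and shares 24 of them exactly with Sec31a-201, held 41.6, 24.4, 4.41, 0, 23.1 and 43.6% of the gene in fasted replicates 1 to 6. It was listed at 0 in 5 of 6 controls and held 2.13% of the gene in the other. Fasted replicate 4, where it was listed at 0, was the fasted library with the highest Sec31a-201 level, 31.5 FPKM. In Golga2 the transcript Golga2-210 held 61.0, 41.9, 14.8, 55.8, 43.5 and 9.11% of the gene in fasted replicates 1 to 6, against 7.58 to 12.9% in controls. Golga2-207 held 13.4 to 39.7% in fasted aortae, against 30.0 to 51.7% in controls, and in limma neither share passed (adjusted p = 0.157 for Golga2-207 and 0.189 for Golga2-210). Golga2-207 taken alone for the gene gave -0.55 (adjusted p = 0.0405), the opposite sign of the summed gene. In limma over all transcripts Golga2-207 was not called (adjusted p = 0.0615). Golga2-207 and Golga2-210 span 1010 and 814 exonic bases, all coding in the annotation, and Golga2 overlaps Swi5 on the opposite strand, listed at a mean of 98.4 FPKM.

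**Figure D3:**
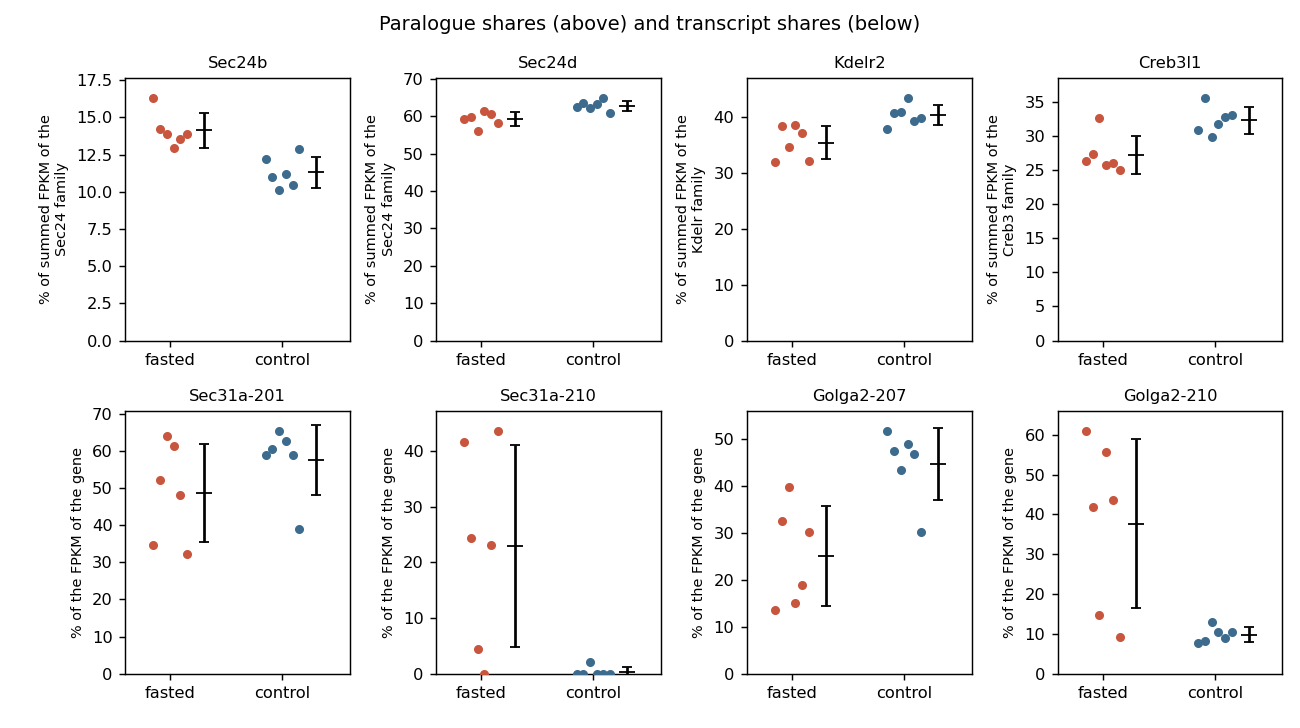
The upper panels give the share of a paralogue in the summed FPKM of its family in percent, the lower panels the share of a transcript in its gene in percent, fasted on the left and control on the right; points are libraries and bars the mean with its SD (n = 6). Sec24b is higher and Sec24d, Kdelr2 and Creb3l1 are lower on the means, and the fasted shares of Sec31a-210 range from 0 to 43.6% and of Golga2-210 from 9.11 to 61.0%.

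Other genes of the same route were counted beside the 52. Of all tested genes 17.9% fell and 13.8% rose, the shares to set beside every such count below. Of 18 further COPII and exit site genes 6 fell and 1 rose (median log2 difference -0.036), led by Lman2l, a lectin related to LMAN2 (-1.07, adjusted p = 7.21e-06), and the paired YIF1 genes Yif1a (-0.57, adjusted p = 1.97e-05) and Yif1b (-0.48, adjusted p = 1.19e-04). Of 42 SNAREs, tethers and fusion factors 13 fell and 3 rose (median -0.11), among them Cog5 (-0.66, adjusted p = 6.17e-05) and Nbas (-0.49, adjusted p = 3.75e-04), which tether retrograde vesicles, and the TRAPP subunit Trappc9 (-0.33, adjusted p = 0.00108). Of 21 COPI and Arf regulators and early Rab GTPases 6 fell and 1 rose (median -0.11), with Acbd3 (-0.32, adjusted p = 1.39e-04), Rab1a (-0.27, adjusted p = 1.64e-04) and Rab2a (-0.18, adjusted p = 0.00283) in front. For the post-Golgi coats, of 36 clathrin, adaptor and retromer genes 7 fell and 5 rose (median -0.034). The share that fell, 19.4%, was near that of all tested genes, and the summed level was 767 to 882 FPKM in fasted aortae, against 840.2 to 889.5 FPKM in controls. Ap4m1 (0.37, adjusted p = 3.69e-04) and Ap4e1 (0.35, adjusted p = 5.75e-04) of the AP-4 adaptor rose and Ap2b1 (-0.29, adjusted p = 8.54e-04) of AP-2 fell. The difference between these lists and the 52 genes was not tested.

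Upstream in the ER, where cargo is translocated and folded, of 28 chaperone and folding genes 19 fell and 1 rose (median -0.51), and their summed level was 1571 to 1733 FPKM in fasted aortae, against 2356 to 2734 FPKM in controls, 37.2% lower on the means. The smallest p belonged to the calcium-binding chaperone Calr (-1.23, adjusted p = 8.66e-08), Creld2 (-1.31, adjusted p = 1.27e-07) and Sdf2l1 (-1.71, adjusted p = 1.55e-07). Of 25 translocation and signal peptide genes 13 fell and 1 rose (median -0.26), with the translocon-associated Ssr1 (-0.62, adjusted p = 1.78e-06), the channel subunit Sec61b (-0.71, adjusted p = 1.02e-05) and the ribosome-binding Rrbp1 (-0.44, adjusted p = 1.57e-05) first. A list of 15 genes joined ER stress sensors and effectors, the proteases that cleave CREB3 and ATF6 proteins, and regulators of the SREBP sterol system, whose factors the same proteases cleave; 6 of them fell and 2 rose (median -0.16). The sterol regulators Srebf2 (-1.08, adjusted p = 9.13e-08), Insig1 (-0.71, adjusted p = 2.40e-04) and Srebf1 (-0.66, adjusted p = 3.48e-04) fell and Insig2 (0.46, adjusted p = 0.00115) rose. Of the ER stress genes, the transcription factors Xbp1 (-0.71, adjusted p = 3.78e-06), Atf6b (-0.55, adjusted p = 2.46e-04) and Ddit3 (-0.29, adjusted p = 0.0182) fell and the sensor Ern1 (0.28, adjusted p = 0.00597) rose. The sensors Atf6 (0.089, adjusted p = 0.402) and Eif2ak3 (-0.16, adjusted p = 0.151) and the proteases Mbtps1 (-0.21, adjusted p = 0.0877) and Mbtps2 (0.26, adjusted p = 0.259) were not called. Of 30 secreted matrix genes, the cargo of this route in the aortic wall, 10 fell and 1 rose (median -0.14). The matrix genes with the smallest p were the protease inhibitor Timp3 (-0.31, adjusted p = 7.00e-05), Col6a3 (-0.77, adjusted p = 2.41e-04) and Fbln5 (-0.41, adjusted p = 0.00103). The summed matrix level overlapped between the groups, at 12380.2 to 15708 FPKM in fasted aortae, against 13846 to 16768 FPKM in controls.

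**Figure D4:**
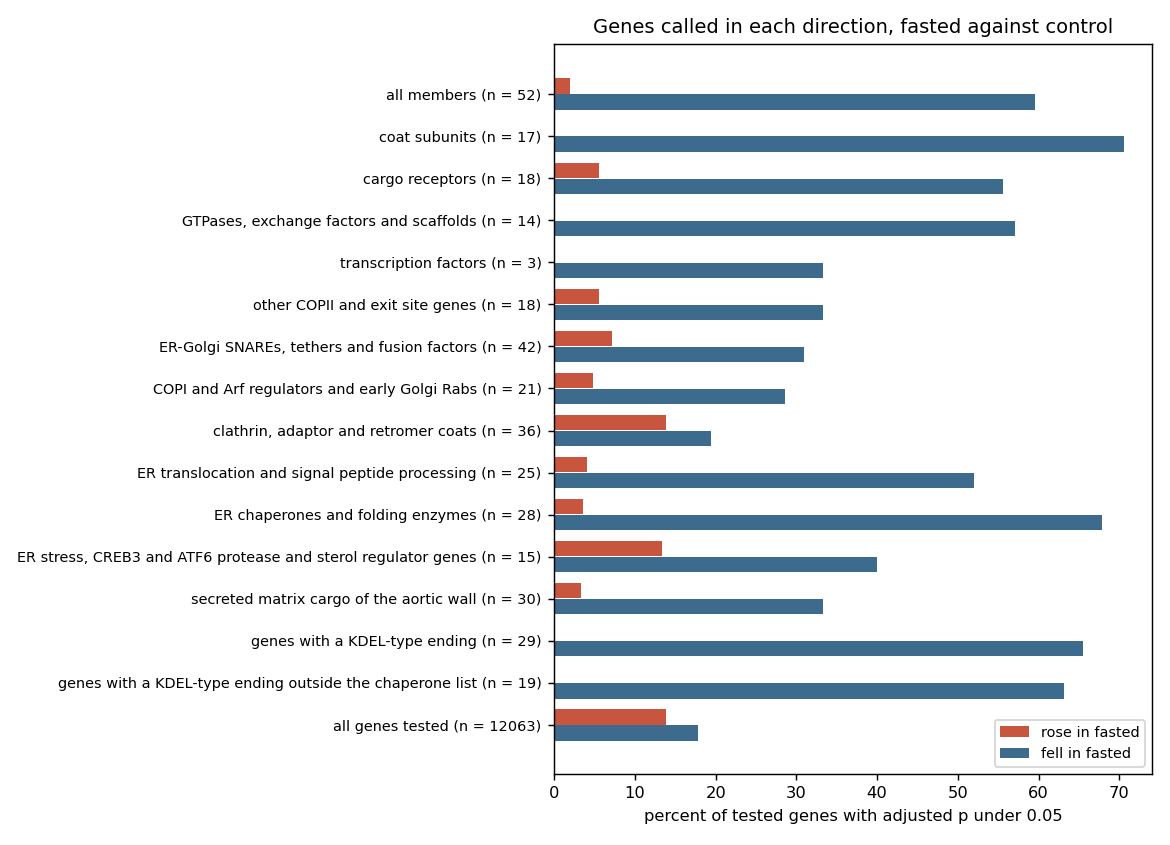
Percent of tested genes called higher (red) and lower (blue) in fasted aortae by limma, for the 52 members, their classes, the related lists and all 12063 tested genes. The members fell in 59.6%, the ER chaperones in 67.9%, the clathrin, adaptor and retromer genes in 19.4% and all tested genes in 17.9%.

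The clients of the KDEL receptors were found by their ends. Reading the listed coding transcripts to their stop codon in GENCODE M21 gave 29 tested genes whose protein ends in KDEL, HDEL, RDEL or QDEL, and 19 of them fell and 0 rose (median -0.37; of the 10 not called, 7 had a negative difference). The share that fell was 65.5%, against 17.9% of all tested genes. By ending, 9 of 11 HDEL, 4 of 11 KDEL, 4 of 5 RDEL and 2 of 2 QDEL genes fell. The 6 with the smallest p were Calr, Sdf2l1, Pdia6 (-1.24, adjusted p = 2.47e-07), Hsp90b1 (-0.96, adjusted p = 2.80e-06), the disulfide isomerase P4hb (-0.42, adjusted p = 4.95e-05) and Erp44 (-0.34, adjusted p = 8.96e-05), all of which were also on the chaperone list. Of the 19 outside that list 12 fell, such as the calcium-binding reticulocalbins Rcn1 (-0.79, adjusted p = 1.16e-04), Rcn3 (-0.37, adjusted p = 3.14e-04) and Rcn2 (-0.29, adjusted p = 0.00102). The ending alone does not place a protein in the ER. Among those not called were the abundant chaperone Hspa5 (-0.37, adjusted p = 0.359), Dnajc10 (-0.046, adjusted p = 0.690) and Edem3 (0.025, adjusted p = 0.864). Hspa5 spread widely, at 45.9 to 116.5 FPKM in fasted aortae, against 81.3 to 217.8 FPKM in controls. The receptors themselves differed by -0.62 in Kdelr2, -0.40 in Kdelr3 and -0.26 in Kdelr1, which was not called.

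Markers of the cells in the wall were checked beside these falls. All 10 smooth muscle markers were listed, at a summed 9099 to 10278 FPKM in fasted aortae, against 9131 to 11299 FPKM in controls, with 2 higher and 1 lower. Of 10 fibroblast markers, 3 rose and 4 fell, and their summed level overlapped, at 2012 to 2448 FPKM in fasted aortae, against 2067 to 2429 FPKM in controls. Of 10 endothelial markers 3 rose and 0 fell, with a summed level of 237 to 312 FPKM in fasted aortae, against 167 to 250.04 FPKM in controls. White and general adipocyte markers moved with the groups: 9 of 10 were tested, 5 rose and 0 fell, Lep was not listed, and the sums of 292 to 538 FPKM in fasted aortae, against 134 to 209 FPKM in controls did not overlap. Macrophage markers gave 1 higher and 1 lower of 10, brown adipocyte markers 1 and 1 of 7 and Schwann cell markers 1 and 0 of 5. Skeletal and cardiac muscle markers gave 1 and 0 of 7, and erythroid markers 0 and 0 of 5. The summed muscle markers reached 233.8 and 179.3 FPKM in fasted replicates 5 and 6. They were at 39.5 to 54.7 FPKM in the other fasted libraries and 27.0 to 57.9 FPKM in controls. The erythroid sum spread widely, at 375 to 2482 FPKM in fasted aortae, against 476 to 2819 FPKM in controls. All 5 erythroid markers had negative differences. Plasma cells are rich in secretory machinery. Of 10 plasma cell and lymphocyte markers 2 were listed, and their sum also moved with the groups, in the direction of the transport genes, at 10.49 to 12.3 FPKM in fasted aortae, against 13.9 to 18.8 FPKM in controls, 31.5% lower on the means. Most of it was Sdc1, a syndecan that other cells make too, which fell (-0.53, adjusted p = 1.74e-04), while Jchain, at 0.567 to 1.083 FPKM in fasted aortae, against 0.686 to 1.16 FPKM in controls, was not called (-0.087, adjusted p = 0.512). The defining genes Cd79a, Ms4a1, Cd3e and Mzb1 were not listed. The part of adipocytes, plasma cells and other cell types in the falls of the transport genes was not tested.

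**Figure D5:**
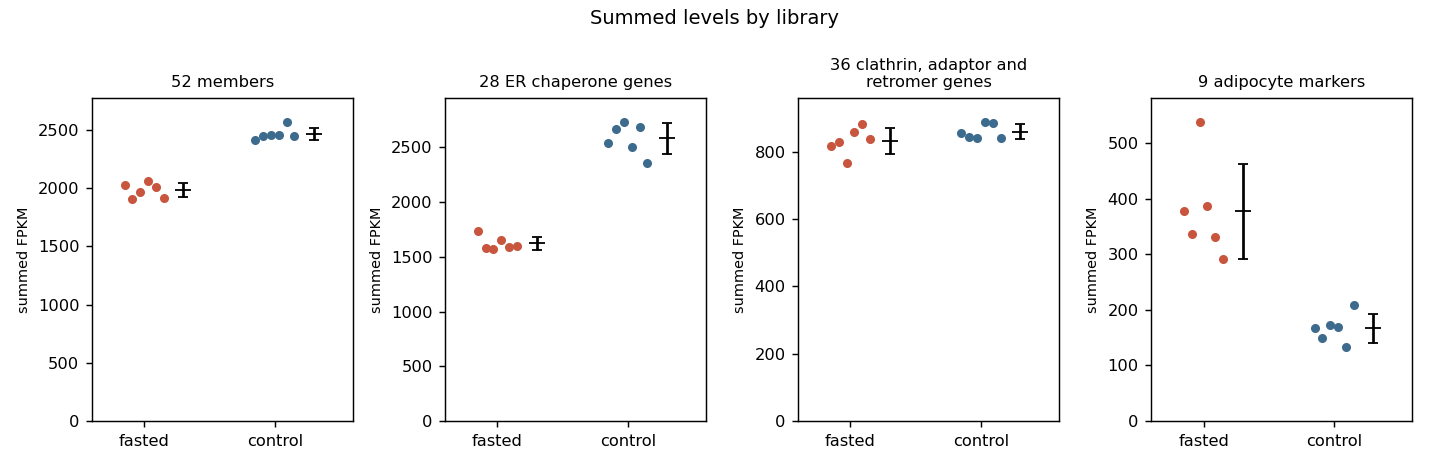
FPKM summed over the 52 members, 28 ER chaperone genes, 36 clathrin, adaptor and retromer genes and 9 adipocyte markers in every library, from 0, fasted on the left and control on the right, with the mean and SD (n = 6). The members (1911.8 to 2062.1 FPKM in fasted aortae, against 2413.3 to 2570.6 FPKM in controls) and chaperones lie lower, the adipocyte markers higher, and the clathrin group overlaps.

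Libraries differed in ways the groups do not describe. The first principal component, with 32.8% of the variance, separated fasted from control libraries, and the second, with 12.8%, set fasted replicate 3 apart. That library was the lowest of the 6 fasted libraries in 19 of the 52 genes and the highest in 15. Without it 32 of the 52 genes fell and 2 rose. Pairs of libraries had 2.32% to 7.03% of genes within 1% of each other, so none was a copy of another. Of the 52 genes, 15 overlap another listed gene, 14 of them on the opposite strand. Among genes that fell, Tmed1 shares 207 bases with Dnm2 on the opposite strand, listed at a mean of 18.9 FPKM. Ergic1, which also fell, shares 640 bases with Dusp1 on the opposite strand, listed at a mean of 31.4 FPKM. The sources used here do not give whether the authors counted by strand.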

How the data were processed

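Poly(A) RNA of 12 aorta samples was read on both ends of strand-specific libraries, per the labels' protocols. The authors deposited 1 table of FPKM per transcript, with 22699 transcripts. The tools were HISAT2, StringTie, cutadapt and FastQC on GRCm38, per the submitters' processing notes, and the sources used here do not give their versions, the annotation release or the use of strand. No listed transcript averages under 0.5 FPKM in both groups. FPKM show no depth, so no counting interval was computed, and abundant genes can shift the rest.

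Transcripts were summed to genes through GENCODE M21: 21493 identifiers matched by version, 1162 only without it, and 44, with 0.117% of the FPKM, not at all. In R 4.3.3, two-sided tests of genes and transcripts used lmFit and eBayes of limma 3.58.1 with a mean trend, on the scale log2(FPKM + 1). Their p-values were adjusted by Benjamini and Hochberg's method over all features that reached 0.5 FPKM in 6 libraries or more, with a threshold of 0.05. Isoform shares were tested with limma on their arcsine square root, in genes never under 1 FPKM whose transcripts averaging 0.5 FPKM or more numbered 2 or more. Paralogue shares were tested by exact permutation over 924 splits. The steps were tested on simulated data.

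Members, roles, lists and markers were chosen with earlier results of these data known. Values by library are given for up to 3 genes of each role with the smallest p and for every gene that rose. Up to 3 genes of each related list are named, with exceptions. More are named of the ER stress and sterol list, of the tethers and of the genes with a KDEL-type ending. The design had named a RefSeq protein table for the KDEL-type endings; it was not used here, and the endings were read from stop codons of the listed coding transcripts in GENCODE M21, a choice made after the data were seen. The alternatives were pseudocounts of 0.1 and 0.01, no filter or a mean of at least 2 FPKM, median-of-ratios scaling, eBayes without trend or robust, the most abundant transcript alone, the replicate number as a block, and leaving out each library. Pseudocount, filter and trend do not apply to shares; there the logit, a filter of 5 FPKM and the difference in medians were tried.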

Additional observations from a re-analysis of the deposited data

Results flagged for a closer look

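Levels of the 52 genes were screened for 1 library far from the other 5 of its group, by Dixon's gap over the range at its 95% critical value. Of 104 groups 10 were past it, where chance gives about 1 in 20. In fasted replicate 3, Sec23a was at 22.9 FPKM (the other fasted libraries 33.0 to 35.8 FPKM), Tmed7 at 8.27 FPKM (12.5 to 14.3 FPKM), Tmed5 at 14.4 FPKM (11.2 to 12.01 FPKM) and Arf5 at 45.5 FPKM (30.0 to 34.9 FPKM). Fasted replicate 6 had Sar1a at 23.6 FPKM, against 62.7 to 68.1 FPKM in the other fasted libraries. Fasted replicate 2 had Tmed10 at 41.9 FPKM, against 95.5 to 109 FPKM, and fasted replicate 1 had Sec24b at 18.0 FPKM, against 12.4 to 14.2 FPKM. Among controls, replicate 1 stood apart in Preb at 9.63 FPKM (the others 4.88 to 6.43 FPKM) and in Creb3l2 at 48.8 FPKM (41.1 to 43.5 FPKM), and replicate 4 in Kdelr1 at 47.2 FPKM (58.8 to 64.1 FPKM). Causes of these values were not tested.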

How the results depend on the processing

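The number of the 52 genes that fell was 30 to 33 under the alternatives over all libraries and 29 to 32 when 1 library was left out, against 31 as reported. Of the 52 genes, 34 kept their call and sign under all 21 settings, and none that was called turned its direction. The number that rose was 2 with median-of-ratios scaling, which added Creb3, and 1 to 2 when 1 library was left out. Isoform shares called numbered 0 to 1 when 1 library was left out. Paralogue shares called were 0 with the difference in medians and 1 to 5 when 1 library was left out. With the most abundant transcript alone the sign turned for Preb (0.061), Sec16a (0.063) and Golga2 (-0.55); leaving out 1 library gave -0.020 to 0.025 for Mia3 and -0.014 to 0.094 for Ergic2. The causes were not tested.

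Replicate numbers did not pair the libraries. After the group mean of each gene was subtracted, the remaining deviations of same-numbered fasted and control libraries correlated at -0.0063 to 0.084. With the replicate block, the genes called numbered 3652, 33 of the 52 fell, 1 rose, 29 of their transcripts and 0 isoform shares were called, and 0 paralogue shares passed by sign flips, whose smallest adjusted p was 0.133.

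Depth is unknown, FPKM are relative to the library total, and the transcripts were split by the authors' assembly. Median-of-ratios scaling moved the median of all tested genes to 4.20e-04, against -0.024 as reported.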

Other observations

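Genes of the ER-Golgi tethers outside the 52 moved in both directions; these were picked after their values were seen. Of the conserved oligomeric Golgi complex, Cog5, Cog1, Cog8 and Cog7 fell and the other 4 subunits were not called. Cog5 had 10.99 ± 1.32 FPKM in fasted aortae and 17.9 ± 1.35 FPKM in controls (SD, n = 6 each; adjusted p = 6.17e-05, limma). Golgb1, which encodes the large Golgi tether giantin, rose without overlap, with 28.9 ± 1.72 FPKM in fasted aortae and 23.3 ± 1.59 FPKM in controls (log2 difference 0.30, adjusted p = 0.00114). Control replicate 1 was the lowest of the 6 controls in 16 of the 52 genes and the highest in 6, and fasted replicate 4 was the lowest of the 6 fasted libraries in 1 and the highest in 9. In Sec31a the transcript Sec31a-205 held 38.1% of the gene in control replicate 6 and at most 0.0065% in the other 11 libraries.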
